A study of Homo sapiens with 3 samples.

Results

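The 3 miRNAs described here, hsa-miR-34a-5p, hsa-miR-192-5p and hsa-miR-194-5p (written without the species prefix from here on), were chosen by name, as miRNAs that the tumour suppressor p53 induces after DNA damage, out of 1149 mature human miRNAs in the deposited table. All 3 were found, and 2 of them, miR-192-5p and miR-194-5p, were among the 208 that averaged at least 10 rpm (rpm is reads per 1000000 reads of a library). They were measured by small RNA sequencing in CAL-27, an established human line of squamous carcinoma of the tongue, and each of the 3 groups had 1 library. RR was the radioresistant group, made by X-ray exposure of 2 Gy a day in 2 cycles of 5 days, with 2 weeks of recovery after each cycle before single cells were cloned. Mock came, by the design text, from clones given a single exposure of 2 Gy, and CC from untreated control clones of the same parental line. The treatment tag of the RR library names 2 Gy and that of the Mock library names irradiation with no dose, so the tags do not settle which is which, and every direction refers to the library labelled so. Whether 1 clone or several went into a library is not stated in the labels, nor how long after the last exposure RNA was taken.

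The transcription factor p53 is stabilised when DNA breaks, and it raises transcription of genes that halt the cell cycle or start apoptosis. The gene of miR-34a is a direct target of p53, and its product represses mRNAs of cell cycle and survival genes such as CDK6, MET and BCL2. miR-192 and miR-194 are made from a shared primary transcript, are abundant in liver, gut and kidney epithelium and have been described as p53-induced, miR-192 also as a repressor of MDM2, the ligase that degrades p53.

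The mature sequences, from RefSeq on GRCh38.p14, are shown with the seed (bases 2 to 8, which pair with targets) in capitals, because the seed decides which other miRNAs belong beside each member. All 3 members matched, and each sequence was the same as in the deposited table.
miR-34a-5p: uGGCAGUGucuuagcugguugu
miR-449a: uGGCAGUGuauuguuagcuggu
miR-192-5p: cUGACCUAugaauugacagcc
miR-215-5p: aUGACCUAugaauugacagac
miR-194-5p: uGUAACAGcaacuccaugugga
miR-34a-5p shared its seed GGCAGUG with miR-449a and miR-34c-5p in the table, miR-192-5p shared UGACCUA with miR-215-5p, and no other listed miRNA had the seed GUAACAG of miR-194-5p. miR-215-5p is as long as miR-192-5p, 21 bases, and differs from it by C1A and C20A, counted from the 5′ end and with the base of miR-192-5p first. It was the only listed miRNA within 2 mismatches of any member. The sources used here do not say to which of the pair an ambiguous read was assigned.

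miR-34a-5p lies at chr1:9151735-9151756 on the minus strand, in an exon of the long non-coding host gene MIR34AHG, by GENCODE release 29. miR-192-5p lies at chr11:64891203-64891223 on the minus strand. Its hairpin and that of miR-194-2 are 108 bases apart in exons of the host gene MIR194-2HG. miR-194-5p is cut from 2 hairpins with the same mature sequence, MIR194-2 at chr11:64891355-64891439 and MIR194-1 at chr1:220118157-220118241. MIR194-1 lies 194 bases from MIR215, and both are antisense to an intron of the protein-coding gene IARS2. The 3 hairpins that matter for the source of the reads are shown with the arms listed in the table in capitals.
MIR192: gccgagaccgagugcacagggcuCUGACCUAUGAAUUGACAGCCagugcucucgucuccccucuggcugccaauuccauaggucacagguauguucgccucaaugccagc
MIR194-2: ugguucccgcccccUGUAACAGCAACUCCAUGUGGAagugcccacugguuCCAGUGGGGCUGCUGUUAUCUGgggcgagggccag
MIR194-1: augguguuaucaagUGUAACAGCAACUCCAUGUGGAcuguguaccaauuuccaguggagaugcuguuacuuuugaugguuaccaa
Of 1562 RefSeq hairpins searched, miR-194-5p was found in 2 and miR-194-3p in 1, MIR194-2. Reads of miR-194-5p therefore cannot be assigned to a locus, whereas miR-194-3p belongs to the locus on chromosome 11 that also holds MIR192.

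The libraries held 10473400 reads in RR, 10632785 in Mock and 10769990 in CC, of which the listed miRNAs made up 20.5%, 23.2% and 16.3%. The floor was set at 3 reads, which is 0.286 rpm in RR, 0.282 rpm in Mock and 0.279 rpm in CC. Intervals are 95% exact intervals that cover counting error only and treat each read as independent. PCR copies without molecular identifiers are not independent molecules, so the intervals may be too narrow even for counting error. Since each group had 1 library, differences could not be set against the spread between replicates and p-values are not given. The interval around a ratio describes 2 particular libraries and says nothing of how conditions vary. The squamous epithelial markers miR-205-5p, miR-203a-3p, miR-31-5p, miR-200c-3p and miR-141-3p were all detected in every library. They summed to 44137 rpm in RR, 28369 rpm in Mock and 37902 rpm in CC. The lower sum in Mock came from miR-205-5p, at 14174 rpm in Mock and 25945 rpm in CC, a ratio of 0.546 (0.543 to 0.550). The other 4 were not lower in Mock than in CC, from 1.04-fold for miR-203a-3p (0.867 to 1.24) to 2.07-fold for miR-141-3p (1.73 to 2.49).

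miR-34a-5p, a direct p53 target, was barely detected. It had 6 reads in RR, 7 in Mock and 1 in CC, which are 0.573, 0.658 and 0.0929 rpm. The 95% Poisson intervals were 0.210 to 1.25 rpm in RR, 0.265 to 1.36 in Mock and 0.00235 to 0.517 in CC. All 3 overlap. RR over CC was 6.17-fold with an interval of 0.749 to 284, and Mock over CC 7.09-fold with an interval of 0.911 to 320. RR over Mock was 0.870 (0.242 to 3.02). A difference in miR-34a-5p was thus not detectable at this depth, and its intervals also allow a change of several fold. The level of miR-34a-5p ranked 461st of 1149 in RR, 432nd in Mock and 698th in CC, ties taking the best rank. In a bulk library, fewer cells with a miRNA and less of it per cell cannot be told apart, here and in all results that follow.

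Most reads with the miR-34 seed were those of miR-34c-5p, which is processed with miR-34b from a separate p53-responsive locus on chromosome 11. miR-34c-5p had 59 reads in RR, 103 in Mock and 44 in CC, or 5.63, 9.69 and 4.09 rpm. Mock stood above both other libraries, at 2.37-fold over CC (1.65 to 3.46), and RR over Mock was 0.582 (0.415 to 0.809). RR over CC was 1.38-fold, and 1 lies within its interval (0.917 to 2.09). miR-449a, made from a locus known for ciliated epithelium, had 0 reads in RR, 3 in Mock and 0 in CC, at or under the floor throughout. miR-34a-5p gave 9.23% of the reads with this seed in RR (Clopper-Pearson interval 3.46% to 19.0%), 6.19% in Mock (2.53% to 12.3%) and 2.22% in CC (0.0562% to 11.8%).

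The other arms of the miR-34b and miR-34c hairpins were ordered RR, Mock, CC from high to low. miR-34c-3p had 23 reads in RR, 15 in Mock and 6 in CC. RR over CC was 3.94-fold (1.56 to 11.8). miR-34b-3p had 9, 2 and 1 reads, and RR over CC was 9.25-fold with a wide interval (1.28 to 406) that rests on the single CC read. Neither of the Mock over CC intervals excluded 1, at 0.928 to 7.97 for miR-34c-3p and 0.105 to 120 for miR-34b-3p. The 3 arms listed for the pair came together to 91 reads in RR, 120 in Mock and 51 in CC, so that RR over CC was 1.83-fold (1.29 to 2.64) and Mock over CC 2.38-fold (1.70 to 3.38). RR over Mock of this sum was 0.770, and its interval (0.580 to 1.02) contains 1. All of these miRNAs had a mean under 10 rpm and were left out of the counts given with the p53-regulated list. Their ratios are per library read and were not rescaled. Among the 208 miRNAs that averaged at least 10 rpm, the median log2 ratio was 0.36 in RR over CC and 0.28 in Mock over CC.

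**Figure D1:**
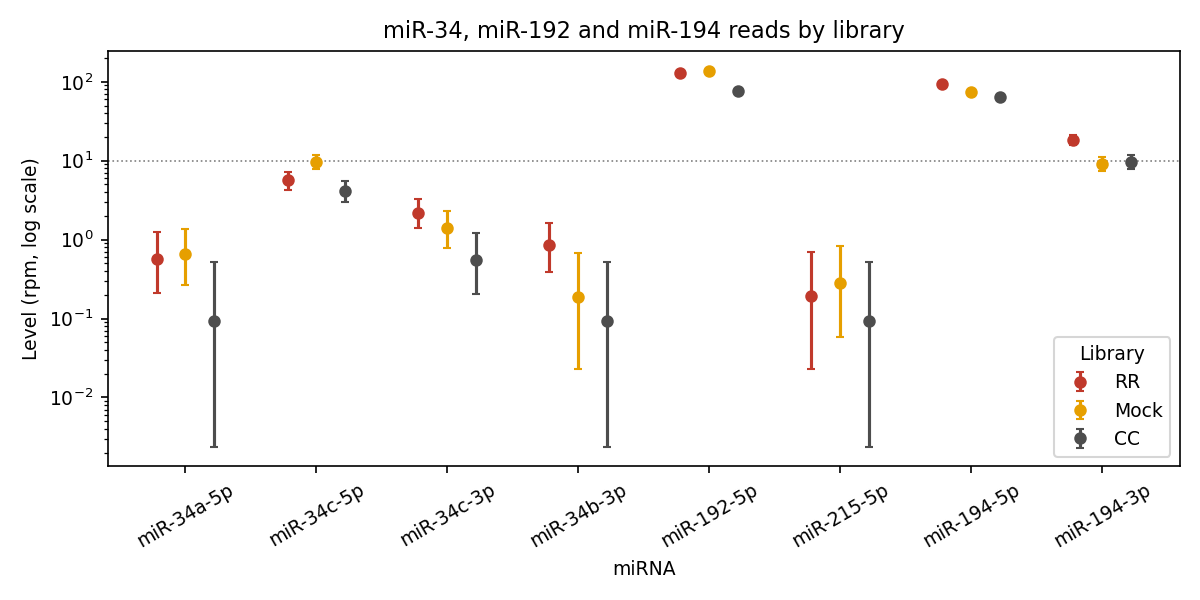
Level in rpm (log axis) of miR-34a-5p, its relatives from the miR-34b and miR-34c hairpins, miR-192-5p, miR-215-5p and both miR-194 arms, for the libraries RR, Mock and CC, with bars for 95% Poisson intervals and a dotted line at 10 rpm. miR-192-5p and miR-194-5p lie between 65.0 and 136 rpm, while miR-34a-5p stays under 1 rpm with intervals that overlap in all 3 libraries.

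miR-192-5p, the most abundant of the 3, was higher in both irradiated libraries than in CC. It had 1353 reads in RR, 1443 in Mock and 822 in CC, or 129 rpm (122 to 136), 136 rpm (129 to 143) and 76.3 rpm (71.2 to 81.7). RR and Mock overlap in their intervals, and CC lies below both. The RR level was 1.69-fold that of CC (1.55 to 1.85), a log2 ratio of 0.75 after adding 1 rpm, and 10 of the 208 miRNAs had a larger log2 ratio. The Mock level was 1.78-fold that of CC (1.63 to 1.94), a log2 ratio of 0.82, with 38 miRNAs above it. RR over Mock was 0.952, and its interval (0.883 to 1.03) contains 1.

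These ratios stand beside a median that was itself above 0, since most miRNAs were higher per library read in RR and Mock than in CC. The median log2 ratio of all 208 miRNAs was 0.36 in RR over CC, 0.28 in Mock over CC, and 0.06 between RR and Mock. When the libraries were scaled by their median ratio, which takes these medians to -0.02, -0.01 and -0.01, the log2 ratio of miR-192-5p was 0.37 for RR over CC and 0.52 for Mock over CC. The number of miRNAs above it, given with the ratios, does not depend on scaling beyond the effect of the added 1 rpm.

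miR-194-5p, a miRNA known to repress the mesenchymal cadherin CDH2, was highest in RR, and Mock lay close to CC. It had 976 reads in RR, 781 in Mock and 700 in CC, or 93.2 rpm (87.4 to 99.2), 73.5 rpm (68.4 to 78.8) and 65.0 rpm (60.3 to 70.0). RR lies above the intervals of both others, and the intervals of Mock and CC overlap. The RR level was 1.43-fold that of CC (1.30 to 1.58), a log2 ratio of 0.51, with 46 of 208 miRNAs above it. That log2 ratio was 0.13 with median-ratio scaling and 0.18 when expressed per miRNA read. Against Mock the RR level was 1.27-fold (1.15 to 1.40), a log2 ratio of 0.34. Mock over CC was 1.13-fold (1.02 to 1.25), a log2 ratio of 0.17 that is below the median of all miRNAs and turned to -0.12 with median-ratio scaling and to -0.33 when expressed per miRNA read.

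miR-194-3p, the opposite arm of the MIR194-2 hairpin, differed more between RR and the other libraries than miR-194-5p did. It had 193 reads in RR, 98 in Mock and 104 in CC, or 18.4 rpm (15.9 to 21.2), 9.22 rpm (7.48 to 11.2) and 9.66 rpm (7.89 to 11.7). RR stands clear of both, and Mock and CC overlap almost wholly. RR over CC was 1.91-fold (1.50 to 2.45), a log2 ratio of 0.87 that 4 of 208 miRNAs exceeded, and RR over Mock was 2.00-fold (1.56 to 2.58), a log2 ratio of 0.93 that 18 exceeded. Mock over CC was 0.954, with an interval of 0.717 to 1.27. The GC content of miR-194-3p is 59.1%, against 45.5% for miR-194-5p and 47.6% for miR-192-5p. In these libraries log2 levels, set against the mean of each miRNA over the libraries, followed GC content by 0.011 per percentage point in RR, -0.020 in Mock and 0.009 in CC. With a linear trend of this kind removed, the log2 ratio of miR-194-3p was 0.84 in RR over CC, 0.64 between RR and Mock, and 0.20 in Mock over CC, where its sign turned.

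miR-215-5p, which shares the seed of miR-192-5p, comes from the locus on chromosome 1 that also holds MIR194-1. It had 2 reads in RR, 3 in Mock and 1 in CC, at or under the floor of 3 reads in every library. Of the reads of miR-192-5p and miR-215-5p together, miR-215-5p gave 0.148% in RR (0.0179% to 0.532%), 0.207% in Mock (0.0428% to 0.605%) and 0.122% in CC (0.00308% to 0.675%). These shares rest on how the authors assigned reads between the pair, which is not stated.

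**Figure D2:**
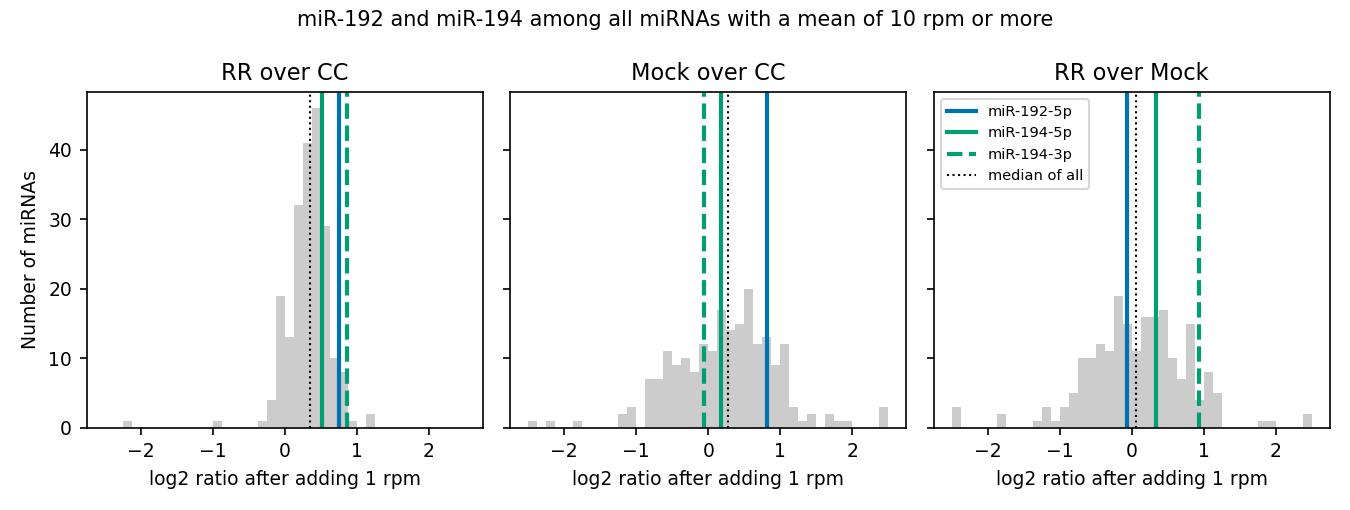
Histograms of the log2 ratio after adding 1 rpm (horizontal axis) over the 208 miRNAs that averaged at least 10 rpm, for RR over CC, Mock over CC and RR over Mock, with lines for miR-192-5p, miR-194-5p, miR-194-3p and the median, and values past 2.5 drawn in the outermost bars. miR-192-5p lies right of the median in both comparisons with CC, at 0.75 and 0.82, and miR-194-5p only in RR over CC (0.51) and RR over Mock (0.34).

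Quotients of reads within a library do not depend on the scale of that library, so the members were also set against each other. miR-192-5p gave 58.1% of the reads of miR-192-5p plus miR-194-5p in RR (Clopper-Pearson interval 56.1% to 60.1%), 64.9% in Mock (62.9% to 66.9%) and 54.0% in CC (51.5% to 56.5%). Mock lies above both other libraries, while the intervals of RR and CC overlap slightly. There were 1.39 reads of miR-192-5p per read of miR-194-5p in RR, 1.85 in Mock and 1.17 in CC. The quotient was 1.18 times higher in RR than in CC (conditional exact interval 1.03 to 1.35) and 1.57 times higher in Mock than in CC (1.37 to 1.80). RR over Mock was 0.750 (0.664 to 0.847). The proportion in Mock lay outside the intervals of the other libraries. Since miR-194-5p reads can come from either of its hairpins, this is not a proportion within a single transcript.

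Reads of miR-194-3p and miR-194-5p also differed in proportion between RR and Mock. Since miR-194-3p comes from MIR194-2 only and miR-194-5p from MIR194-1 or MIR194-2, this is not an arm proportion within a single hairpin. miR-194-3p gave 16.5% of the reads of both arms in RR (14.4% to 18.8%), 11.1% in Mock (9.14% to 13.4%) and 12.9% in CC (10.7% to 15.5%). RR lies above Mock, and its interval overlaps that of CC. Per read of miR-194-5p, miR-194-3p was 1.33 times higher in RR than in CC (1.02 to 1.74) and 1.58 times higher in RR than in Mock (1.21 to 2.07). Mock over CC was 0.845 (0.622 to 1.15). The arms differ in GC content, and between RR and Mock their log2 ratios were 0.93 for miR-194-3p and 0.34 for miR-194-5p as deposited, but 0.64 and 0.48 with the GC trend removed. The arms of miR-34c also had their highest share in RR, though with overlapping intervals, with miR-34c-3p at 28.0% of both arms in RR (18.7% to 39.1%), 12.7% in Mock (7.29% to 20.1%) and 12.0% in CC (4.53% to 24.3%).

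**Figure D3:**
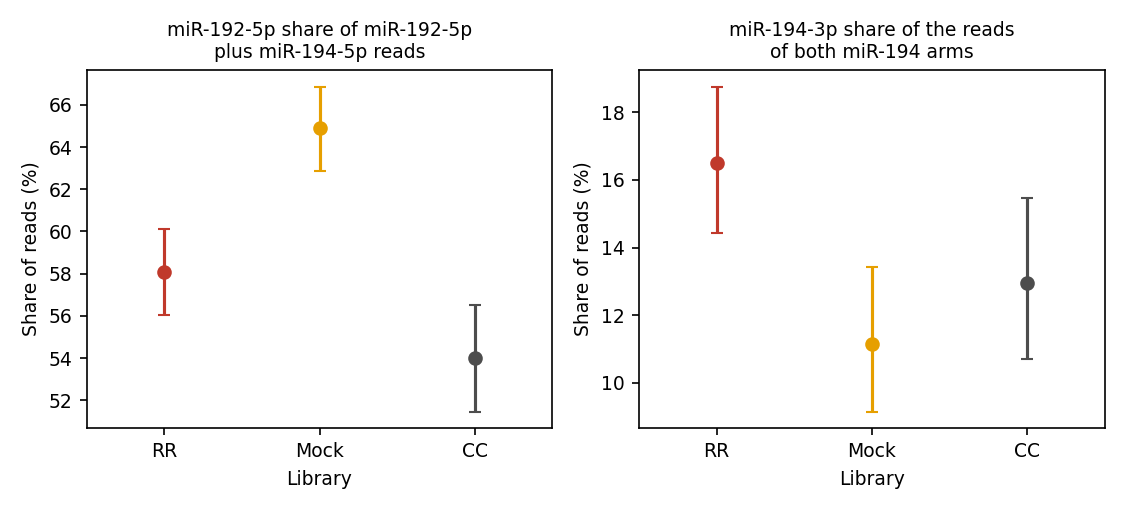
Share of reads in percent (vertical axes, not starting at 0) of miR-192-5p among miR-192-5p plus miR-194-5p on the left and of miR-194-3p among both miR-194 arms on the right, in RR, Mock and CC, with bars for 95% Clopper-Pearson intervals. The miR-192-5p share is 64.9% in Mock, above RR and CC, and the miR-194-3p share is 16.5% in RR, above Mock. Neither is a share within a single hairpin, as miR-194-5p can come from MIR194-1 or MIR194-2.

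The miRNAs whose course over the 3 libraries was most like that of each member were found by the Euclidean distance between log2 levels centred on their mean, among the 208. Nearest to miR-192-5p were let-7i-5p (distance 0.046), miR-140-3p (0.064) and miR-24-3p (0.12), beside a median distance of 0.52. let-7i-5p was 1.61-fold higher in RR than in CC (1.60 to 1.63) and 1.75-fold higher in Mock than in CC (1.74 to 1.77). Nearest to miR-194-5p were miR-1301-3p (0.021), miR-25-5p (0.031) and miR-23a-5p (0.044), beside a median of 0.45. miR-1301-3p was 1.43-fold higher in RR than in CC (1.21 to 1.70) and 1.11-fold in Mock over CC (0.928 to 1.33). The distance between miR-192-5p and miR-194-5p themselves was 0.46. That placed miR-194-5p 87th among the 207 other miRNAs in nearness to miR-192-5p. With 3 libraries such a likeness rests on 3 values per miRNA and is a description only.

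Of a list of 27 mature miRNAs described as regulated by p53, in transcription or processing, 20 were in the table and 10 averaged at least 10 rpm. The list holds the members, and miR-192-5p, miR-194-5p and miR-194-3p can come from 1 locus, so the 10 are not independent. In RR over CC 0 of the 10 differed by 2-fold or more, beside 0.962% of all 208 miRNAs higher and 0.481% lower by that measure. All 10 had a log2 ratio above 0, as did 182 of the 208, and the median of the list was 0.46, beside 0.36. miR-194-3p (1.91-fold) and miR-192-5p (1.69-fold) had the largest ratios of the 10. miR-16-5p, whose processing p53 is known to promote, stood at 51.7 rpm in RR and 46.8 rpm in CC, 1.10-fold, and the interval (0.976 to 1.25) contains 1. Under 10 rpm, miR-143-3p, another miRNA of that kind, had 66 reads in RR and 62 in CC, and miR-145-5p had 2 and 5.

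In Mock over CC 2 of the 10 were higher by 2-fold or more and 0 were lower, beside 12.0% of all 208 higher and 3.85% lower. With so few members, 2 of 10 does not stand apart from that background. A log2 ratio above 0 was seen in 9 of the 10, as in 136 of the 208. The median of the list was 0.55, beside 0.28. miR-16-5p stood at 127 rpm in Mock and 46.8 rpm in CC, 2.71-fold (2.44 to 3.00). miR-141-3p, of the miR-200 family that p53 has been described to induce and that represses ZEB1 and ZEB2, drivers of a mesenchymal state, stood at 34.4 and 16.6 rpm, 2.07-fold (1.73 to 2.49), just past the threshold at a log2 ratio of 1.01. The count was 1 with median-ratio scaling, where 10 of all miRNAs were higher and 18 lower. It was 0 when values were expressed per miRNA read, where 7 of all miRNAs were higher and 31 lower. As deposited, 25 of all miRNAs were higher and 8 lower. miR-107, which targets cyclin-dependent kinase CDK6, had 14.5 rpm in Mock and 4.46 rpm in CC, 3.25-fold (2.34 to 4.59), but a mean under 10 rpm. Its sequence is close to that of miR-103a-3p, so its level is uncertain.

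Markers of blood cells were also higher in the library labelled Mock. Of 7 such markers 6 were in the table, which summed to 12.3 rpm in RR, 410 rpm in Mock and 9.56 rpm in CC, and miR-144-3p, an erythroid miRNA, had 26 reads in Mock and 0 in RR and CC. Most of that sum was miR-486-5p, at 398 rpm in Mock. miR-16-5p is itself abundant in red blood cells, and the part of such RNA in its Mock value was not tested.

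Markers of other tissues were read beside the members. Of 6 markers of liver, gut, kidney and pancreas epithelium, 5 were in the table, and these summed to 37.1 rpm in RR, 25.6 rpm in Mock and 33.0 rpm in CC. Most of that sum was miR-375-3p, a miRNA of pancreatic islets and other endocrine and epithelial cells, at 31.4 rpm in RR, 17.9 rpm in Mock and 25.0 rpm in CC. Like miR-194-5p and miR-194-3p it was highest in RR, 1.26-fold over CC (1.07 to 1.48) and 1.76-fold over Mock (1.47 to 2.11). Its ratio of Mock over CC was 0.715 (0.591 to 0.865). Its log2 ratio of 0.32 in RR over CC was below the median of 0.36, and 113 of the 208 miRNAs had a larger one. By contrast, miR-204-5p was highest in CC, with 27 reads in RR, 21 in Mock and 38 in CC. miR-216a-5p had 2 reads in RR, 1 in Mock and 0 in CC. The hepatic miR-122-5p stood at 2.96 rpm in RR, 5.45 rpm in Mock and 4.46 rpm in CC, and miR-217-5p had 0 reads in RR, 2 in Mock and 0 in CC. Of 5 markers of mesenchyme and endothelium 4 were in the table, which summed to 87.0 rpm in RR, 71.5 rpm in Mock and 60.3 rpm in CC. The endothelial miR-126-3p gave most of this sum and was ordered as miR-194-5p was. It stood at 1.49-fold in RR over CC (1.34 to 1.66) and 1.22-fold in Mock over CC (1.09 to 1.37). RR over Mock was 1.22-fold (1.10 to 1.35). The others were not so ordered. In RR, Mock and CC, miR-143-3p had 66, 47 and 62 reads, miR-145-5p 2, 1 and 5, and miR-199a-5p 0, 12 and 2. All 3 muscle markers were in the table, and they summed to 408 rpm in RR, 345 rpm in Mock and 341 rpm in CC. Most of that sum was miR-1-3p, at 404 rpm in RR, 319 rpm in Mock and 338 rpm in CC. Its ratio of Mock over CC was 0.942 (0.899 to 0.987). miR-133a-3p had 9 reads in RR, 7 in Mock and 11 in CC. Only miR-206 was higher in Mock than in CC, at 3.63 rpm in RR, 25.5 rpm in Mock and 1.76 rpm in CC. That is 14.4-fold in Mock over CC (9.07 to 24.4). The part of RNA from other cell types in the values of the members was not tested.

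In RR over Mock 0 of the 10 p53-regulated miRNAs were higher by 2-fold or more and 1 was lower, beside 8.17% and 4.81% of all 208. The one that was lower was miR-16-5p, at 51.7 rpm in RR and 127 rpm in Mock, a ratio of 0.408 (0.368 to 0.451). The list had a median log2 ratio of -0.11, beside 0.06 for all miRNAs, and 7 of the 10 were below 0. miR-194-5p, miR-194-3p and miR-200c-3p were those above 0, with miR-200c-3p at 1.02-fold. Expressed per miRNA read, miR-194-3p came past 2-fold, and the split of all miRNAs was 25 higher and 8 lower, against 17 and 10 as deposited and 7 and 7 without the GC trend. Comparisons with a shared library are not independent, as Mock enters both this one and that with CC.

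**Figure D4:**
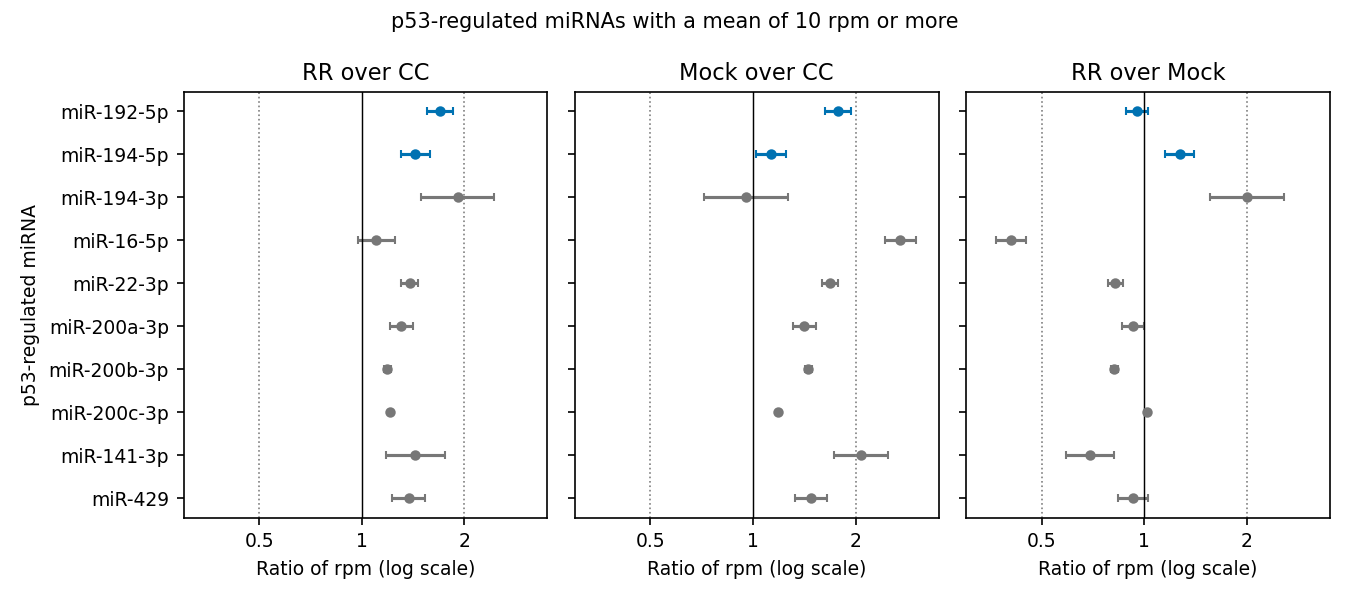
Ratio of rpm (log axis) of the 10 p53-regulated miRNAs that averaged at least 10 rpm, for RR over CC, Mock over CC and RR over Mock, with 95% counting intervals, dotted lines at 2-fold either way and miR-192-5p and miR-194-5p in blue. All 10 points lie right of 1 in RR over CC and none lies past 2-fold there, while miR-16-5p lies at 2.71 in Mock over CC and at 0.408 in RR over Mock.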

How the data were processed

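Total RNA was ligated to adapters, copied and amplified with a New England Biolabs small RNA kit and sequenced on an Illumina NovaSeq, per the labels' protocols. The submitters' processing notes name Bowtie and GRCh38 without saying what each was used for. Trimming, the miRNA reference and the handling of ambiguous reads are not stated there or in the labels.

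The deposited values, which the authors call TPM, behave as RPM. In each library 100% of the 1149 values lay within 0.01 of a whole multiple of 1 common step, so whole reads were recovered. With 1 library per group no count model was fitted. Levels have exact Poisson intervals, and ratios have intervals from Clopper-Pearson limits, at 95%. Log2 ratios were taken after adding 1 rpm. Counts of miRNAs require an average of at least 10 rpm and a 2-fold difference. The members, the lists and the naming rule (members, listed miRNAs, seed sharers, the 3 nearest profiles) were chosen with earlier results of these data known. Results for 1 further list are not reported here. Alternatives were other pseudocounts, filters and scalings and the removal of a GC trend. The computation was tested on simulated data. Tools were scipy 1.17.1, numpy 2.4.6, matplotlib 3.10.9 and pandas 2.3.3, run in Python 3.11.15.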

Additional observations from a re-analysis of the deposited data

How the results depend on the processing

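No paired analysis was possible because each group had 1 library. For the same reason no replicate could be left out. The log2 ratio of miR-34a-5p ran from 0.07 to 1.80 for RR over CC and 0.08 to 1.98 in Mock over CC. Between RR and Mock it ran from -0.17 to -0.01, and it depended mainly on the pseudocount. No pseudocount can turn its sign, and at 50% GC content the removed GC trend leaves this miRNA unchanged. That its sign was kept therefore adds no weight to the differences from CC, which rest on 1 CC read. With median-ratio scaling, miR-192-5p was at 0.37 for RR over CC and 0.52 for Mock over CC, and miR-194-5p at 0.13 and -0.12. Expressed per miRNA read, miR-192-5p was at 0.42 in RR over CC, 0.32 in Mock over CC, and 0.10 between RR and Mock, and miR-194-5p at 0.18, -0.33 and 0.51. These shifts follow from the scaling, which moves all miRNAs alike. With a linear GC trend removed, miR-194-5p was at 0.48 for RR over Mock and the small RR over Mock ratio of miR-192-5p turned from -0.07 to 0.00.

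Among p53-regulated miRNAs, the count higher in RR than in CC was 1 in place of 0 with an average of at least 1 rpm or no filter. The count higher in Mock than in CC, 2 as reported, was 5 with either of those filters, 1 with a pseudocount of 10, median-ratio scaling or the GC trend removed, and 0 with an average of at least 100 rpm or when expressed per miRNA read. For RR over Mock 1 in place of 0 was higher when expressed per miRNA read, and 2 in place of 1 were lower with an average of at least 1 rpm or no filter, and 0 with an average of at least 100 rpm. The filter on the 2 compared libraries alone, chosen after seeing the data, changed none of these counts for p53-regulated miRNAs. The alternatives for miR-194-3p were likewise chosen after seeing the data, and its log2 ratio ran from 0.51 to 0.93 for RR over CC and from 0.56 to 1.08 between RR and Mock. Over all miRNAs and alternatives, 0 to 6 were higher and 0 to 2 lower in RR over CC, 7 to 46 and 1 to 31 in Mock over CC, and 6 to 33 and 5 to 24 in RR over Mock. At this depth miR-34a-5p, miR-34b-3p and miR-215-5p rest on fewer than 10 reads per library.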
